A study of Homo sapiens with 6 samples.

Results

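Small nucleolar RNAs (snoRNAs), small Cajal body RNAs (scaRNAs) and the spliceosomal small nuclear RNAs (snRNAs) were followed through an RNA co-immunoprecipitation of thymidylate synthase (TS), the enzyme that makes thymidylate. The members were the rows of the deposited gene table typed snoRNA, scaRNA or snRNA whose mean over the 6 full libraries was above 500 scaled fragments. They were thus selected on their measured level, and 38 of 2782 rows of these types passed (23 typed snoRNA, 4 scaRNA and 11 snRNA), of 42822 rows in the table and 13479 rows of any type above the same limit. At least 1 fragment in any library was found for 152 rows of these types.

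The cells were HCT116-UGI, a colon adenocarcinoma line deficient in mismatch repair whose base excision repair is blocked at UNG by the inhibitor protein UGI, and every library came from this 1 line. Cells were not treated (NT) or received 100 nM raltitrexed (RTX, an antifolate inhibitor of TS) or 20 µM 5-fluoro-2'-deoxyuridine (5FdUR, a nucleoside that blocks TS once phosphorylated) for 48 h. Each lysate of joined cytoplasmic and nuclear extracts was first put on Protein A/G beads without antibody, whose RNA is the control (RIPctr), and what did not bind there was then taken through the anti-TS antibody and fresh beads (TS-RIP). The control thus met the lysate before the antibody did, and removal of an RNA in that first step and weak recovery in the next cannot be told apart. There was 1 library per treatment and fraction, 6 in all, with 7051104 to 11657293 fragments each, and both fractions of a treatment shared 1 culture. Of the colon epithelial markers, EPCAM, CDH1, KRT8, KRT18 and CDX2 were above 500 while VIL1 and CDX1 were not, and of 11 markers of other cell types 3 were above 500 (COL1A1, VIM and VWF).

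snoRNAs work inside nucleolar ribonucleoproteins. Box C/D RNAs (SNORD genes) bind fibrillarin and guide 2'-O-methylation, and box H/ACA RNAs (SNORA genes) bind dyskerin and guide pseudouridylation, mostly of ribosomal RNA, whereas U3 (SNORD3) and SNORA73 take part in cleavage of the ribosomal RNA precursor. scaRNAs guide the same modifications on snRNAs in Cajal bodies. U1 recognises 5' splice sites, U6 forms part of the catalytic centre of the spliceosome, and U11 recognises the 5' splice sites of the minor class of introns. Most human snoRNAs are cut out of introns of host genes, while U3, U1, U11 and U6 have promoters of their own.

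The label of the member set went against the data for 19 of the 38 rows. A row of the table can join overlapping genes, and 19 rows carried the name of a small RNA but also held transcripts of a long gene, so that fragments of the long transcript and of the small RNA were counted together. This split was read from the transcripts of each row after the values had been seen. The other 19 rows held transcripts of 1 small RNA gene each. They comprised 5 C/D RNAs (SNORD3A, SNORD3B-1, SNORD3B-2, SNORD3C and SNORD17), 2 H/ACA RNAs (SNORA73A and SNORA73B), 5 Cajal body RNAs (SCARNA5, SCARNA6, SCARNA7, SCARNA10 and SCARNA12, of which the file typed SCARNA10 and SCARNA12 as snoRNA) and 7 snRNAs (RNU1-1, RNU1-2, RNU1-3, RNU1-4, RNU11, RNU6-2 and RNU6-9). Conversely, 33 rows typed as protein-coding or lncRNA held such a small RNA gene, 28 of them above 500, and were not members.

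Just above the limit stood RNU6-9 with a mean of 521.7 and RNU6-2 with 627.0, and just below it SCARNA16 with 493.3 and RNVU1-28 with 441.5. A value of 500 corresponded to 3.67 to 5.88 fragments, so these rows rested on few fragments. The 19 rows that held 1 small RNA made up 0.0442% of the fragments in NT RIPctr, 0.0452% in RTX RIPctr and 0.0464% in 5FdUR RIPctr. In the TS-RIP libraries the shares were 0.00797% in NT, 0.00206% in RTX and 0.00398% in 5FdUR, below each control.

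Box C/D and Cajal body RNAs are shown first, because the members with their own row were the long ones of their families. Sequences are from GENCODE 44 on GRCh38, 5' to 3', and capitals mark the letters TGATGA (box C) and the last CTGA (box D). SNORD3A is cut after the box D letters, since its annotated transcript of 699 bases at chr17:19188016-19188714 (plus strand) runs far past the U3 RNA. SNORD17 lies at chr20:17962710-17962946 (minus strand), SCARNA12 at chr12:6967337-6967606 (minus strand) and SCARNA5 at chr2:233275727-233276002 (plus strand).
SNORD3A: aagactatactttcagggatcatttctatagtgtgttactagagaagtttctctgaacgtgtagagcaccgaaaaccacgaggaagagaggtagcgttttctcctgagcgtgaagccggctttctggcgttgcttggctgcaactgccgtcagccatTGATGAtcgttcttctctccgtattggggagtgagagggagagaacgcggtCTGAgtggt
SNORD17: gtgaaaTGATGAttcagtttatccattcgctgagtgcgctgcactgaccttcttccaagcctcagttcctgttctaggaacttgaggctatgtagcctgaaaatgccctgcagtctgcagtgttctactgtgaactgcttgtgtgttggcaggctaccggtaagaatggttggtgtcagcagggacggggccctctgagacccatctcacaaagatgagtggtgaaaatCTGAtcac
SCARNA12: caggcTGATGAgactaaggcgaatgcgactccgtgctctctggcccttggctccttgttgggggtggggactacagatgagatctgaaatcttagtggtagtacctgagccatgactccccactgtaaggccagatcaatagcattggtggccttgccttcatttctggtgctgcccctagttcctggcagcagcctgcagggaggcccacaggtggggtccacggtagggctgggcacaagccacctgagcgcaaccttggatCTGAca
SCARNA5: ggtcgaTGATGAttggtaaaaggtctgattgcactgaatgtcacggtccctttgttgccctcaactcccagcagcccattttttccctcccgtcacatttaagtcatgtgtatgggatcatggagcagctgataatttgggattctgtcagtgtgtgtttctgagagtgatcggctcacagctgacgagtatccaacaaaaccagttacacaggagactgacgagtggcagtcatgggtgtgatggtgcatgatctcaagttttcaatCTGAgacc
TGATGA within the first 20 bases together with CTGA within the last 15 was held by 146 of 225 single-gene SNORD rows (64.9%), by 5 of 19 SCARNA rows (26.3%) and by 0 of 129 SNORA rows, strand as annotated. All 5 SCARNA members with their own row were these 5, and among the 5 SNORD members with their own row SNORD17 held the pattern. SNORD3B-1, SNORD3B-2 and SNORD3C differed from SNORD3A by 1 base each in the first 266 bases, so fragments of U3 cannot be assigned to 1 copy with certainty, and their sum is given beside the single rows.

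The H/ACA members and the snRNAs are shown next. In SNORA73A (chr1:28507366-28507571, plus strand) and SNORA73B (chr1:28508559-28508762, plus strand) capitals mark the ACA box, 3 bases before the 3' end. In RNU1-2 (chr1:16895980-16896143, plus strand) they mark the letters ACTTACCT, which pair with the 5' splice site, and the Sm site ATTTGTGG. In RNU11 (chr1:28648600-28648733, plus strand) they mark the Sm site ATTTTTTGG.
SNORA73A: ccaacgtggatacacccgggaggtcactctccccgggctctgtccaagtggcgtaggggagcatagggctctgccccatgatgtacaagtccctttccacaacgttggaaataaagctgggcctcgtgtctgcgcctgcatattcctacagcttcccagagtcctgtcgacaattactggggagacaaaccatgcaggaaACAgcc
SNORA73B: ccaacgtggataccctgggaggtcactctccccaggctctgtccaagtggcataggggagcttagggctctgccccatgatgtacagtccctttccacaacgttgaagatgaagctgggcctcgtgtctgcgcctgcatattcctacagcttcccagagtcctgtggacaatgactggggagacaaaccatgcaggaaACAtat
RNU1-2: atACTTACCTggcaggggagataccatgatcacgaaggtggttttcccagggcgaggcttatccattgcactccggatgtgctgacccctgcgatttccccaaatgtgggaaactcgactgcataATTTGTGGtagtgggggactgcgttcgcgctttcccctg
RNU11: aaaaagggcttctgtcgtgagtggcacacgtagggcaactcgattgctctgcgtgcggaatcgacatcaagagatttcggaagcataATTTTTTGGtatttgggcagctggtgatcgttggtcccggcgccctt
An ACA at that distance from the end was found in 97 of 129 single-gene SNORA rows (75.2%), in 10 of 19 SCARNA rows (52.6%) and in 4 of 225 SNORD rows (1.78%). RNU1-1, RNU1-2, RNU1-3 and RNU1-4 had the same 164 bases with 0 differences, and RNU6-2 and RNU6-9 the same 107 bases. The split of fragments between such copies is therefore uncertain, and the summed U1 and U6 values carry the comparison. Per the study's methods, reads were filtered for unique mapping (MAPQ of at least 1). Fragments that match several copies may thus be missing from the sums of U1, U6 and U3 as well, which was not tested.

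Longer small RNAs were detected more often in the pool of all classes, and longer C/D and H/ACA RNAs within their own class. Among rows that held 1 gene of these types, 18 of 640 (2.81%) with an annotated length under 100 bases had any fragment in the 6 libraries, 57 of 1803 (3.16%) with 100 to under 150 bases, 27 of 220 (12.3%) with 150 to under 200 bases and 20 of 77 (26.0%) with 200 bases or more. Of these pooled rows 316, 1359, 183 and 4 were snRNAs, in the same order of length, and 0 of the last 4 had a fragment. For box C/D the shares were 7.65% of 196 rows under 100 bases and 75.0% of 8 rows of 200 bases or more, and for H/ACA 25.2% of 115 rows of 100 to under 150 bases and 62.5% of 8 rows of 200 or more. All 12 C/D, H/ACA and Cajal body members with their own row had annotated lengths between 204 and 791 bases. Lengths of 581 to 791 bases were those of the 4 SNORD3 rows, and the SNORD3A transcript runs far past the U3 RNA. The other rows were at 204 to 330 bases. Most modification guides are shorter than 204 bases, so the values below describe the long members of each class. The loss of short RNAs in purification, library preparation or alignment was not tested.

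**Figure D1:**
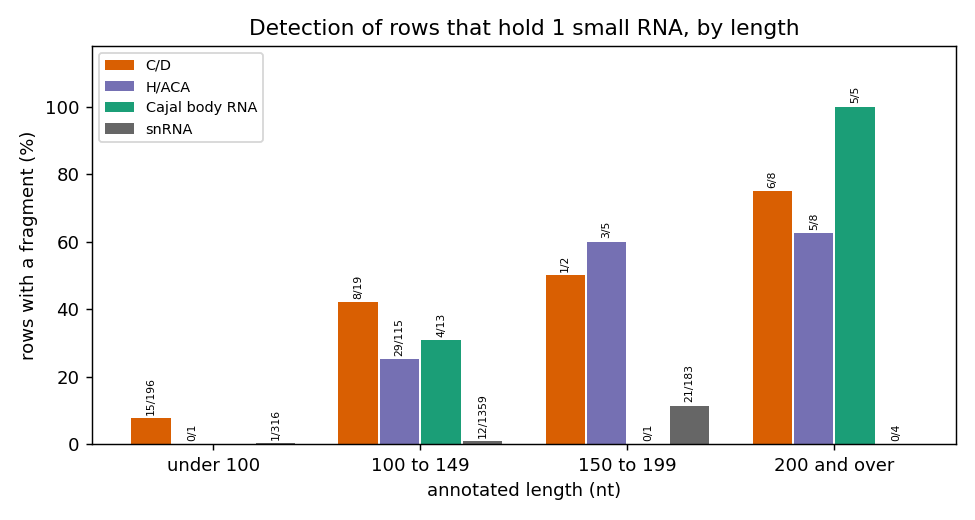
Share of rows holding 1 small RNA gene that had at least 1 fragment in any of the 6 libraries (vertical axis, percent), by annotated length in nucleotides (horizontal axis) and class. Numbers on the bars are rows with a fragment over all rows. C/D detection went from 7.65% under 100 nucleotides to 75.0% at 200 or more.

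Whether these RNAs differed between the TS immunoprecipitate and the bead control was asked over the 3 treatments as 3 pairs. Among the 19 rows of 1 small RNA, 15 were lower in TS-RIP and 0 higher, including all 12 U3, SNORD17, SNORA73 and Cajal body rows, with a median log2 difference of -3.70. Over all 13479 rows tested, 6.17% were called lower and 2.33% higher, and the median was -0.01. Calls were made with limma (pseudocount of 100 before log2, each treatment a block) at a Benjamini-Hochberg adjusted p under 0.05. By edgeR on the recovered fragments 15 of the 19 were lower and 0 higher, and at an unadjusted p under 0.05 limma gave 18 and 0. Since values are shares of a library, less of an RNA on the antibody beads and more of the other RNAs there cannot be told apart.

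The limit on the mean has a bearing on these counts. Of the 19 rows, 8 were above 500 only in the RIPctr libraries (the 5 SCARNA rows, RNU11, RNU6-2 and RNU6-9), so they passed only through the group in which they were high. The other 11 were above 500 in both fractions, and 10 of these were called lower, against 4.87% of the 12901 rows of any type above 500 in both. That count was added after the data had been seen. The 10 rows were the 4 copies of U3, RNU1-2, RNU1-3, RNU1-4, SNORA73A, SNORA73B and SNORD17. Fragments of U3 or of U1 cannot be assigned to 1 copy with certainty, so these are not 10 separate RNAs. The same holds for the 15 of 19 rows called lower.

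**Figure D2:**
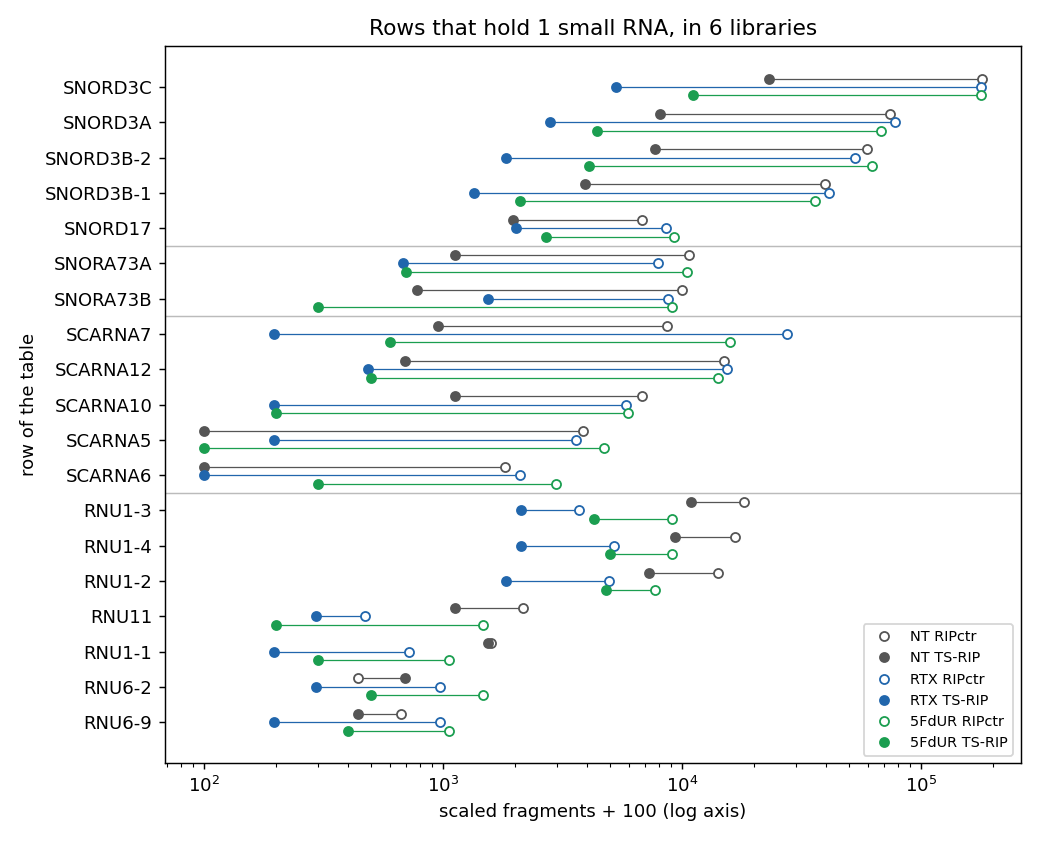
Scaled fragments plus 100 on a log axis for each of the 19 rows that held 1 small RNA, with RIPctr as open and TS-RIP as filled circles and 1 colour per treatment. Grey lines divide C/D, H/ACA, Cajal body RNAs and snRNAs. In U3 the RIPctr circles lie almost on top of each other (SNORD3C: 177560 to 178835) while the TS-RIP circles fan out (5204 to 22951).

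U3, the most abundant among the rows of 1 small RNA, had similar control levels in the 3 treatments. SNORD3C held 178835 in NT, 177958 in RTX and 177560 in 5FdUR among the RIPctr libraries, and 22951, 5204 and 10963 in the matching TS-RIP libraries. Every TS-RIP value lay below every control value, and the RTX immunoprecipitate was the lowest. The limma difference was -4.01 ± 0.25 (moderated SE, 3 pairs, adjusted p = 2.18e-07). Here and below the SE uses a variance that limma moderates with the other rows, so it does not give the spread of the 3 pairs. The ratios of SNORD3C were -2.96 in NT, -5.07 in RTX and -4.01 in 5FdUR. In limma without the trend of variance on level, its adjusted p was 0.0369.

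SNORD3A held 73631, 77779 and 67590 in RIPctr (NT, RTX, 5FdUR) and 7990, 2698 and 4286 in TS-RIP, a difference of -3.98 ± 0.22 (adjusted p = 9.55e-08). SNORD3B-2 held 59498, 52516 and 62412 against 7565, 1735 and 3987 (-3.91 ± 0.25, adjusted p = 2.18e-07). SNORD3B-1 held 39437, 41067 and 35975 against 3825, 1253 and 1993 (-4.12 ± 0.24, adjusted p = 1.04e-07). In each copy the order of the TS-RIP libraries was NT, 5FdUR, RTX from high to low.

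Summed over the 4 copies, U3 was at a log2 ratio of TS-RIP to RIPctr of -3.05 in NT (95% counting interval -3.19 to -2.92), -4.02 in 5FdUR (-4.23 to -3.81) and -5.00 in RTX (-5.29 to -4.73). These 3 intervals did not overlap. They cover counting error only, and with 1 library per group the difference between treatments has no replicate check. Read per copy, the NT interval lay above the RTX interval in all 4 SNORD3 rows and in SCARNA7 among the 19 rows (8.61% of all rows tested), above the 5FdUR interval in SNORD3C and SNORD3B-2 (11.1% of all rows), and the 5FdUR interval above the RTX interval in SNORD3C (2.32% of all rows). The opposite order was found in 1 of the 19 rows, SNORA73B, where RTX lay above 5FdUR. Over all 13479 rows the opposite orders were the more frequent. RTX lay above NT in 1649 rows (1161 the other way), 5FdUR above NT in 1578 (1499) and RTX above 5FdUR in 599 (313). Between drugs and NT the U3 sum moved little in RIPctr (RTX over NT -0.01, interval -0.08 to 0.07, and 5FdUR over NT -0.03, -0.11 to 0.04), so that the order came from the TS-RIP libraries (-1.96, -2.27 to -1.66, and -0.996, -1.23 to -0.76).

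**Figure D3:**
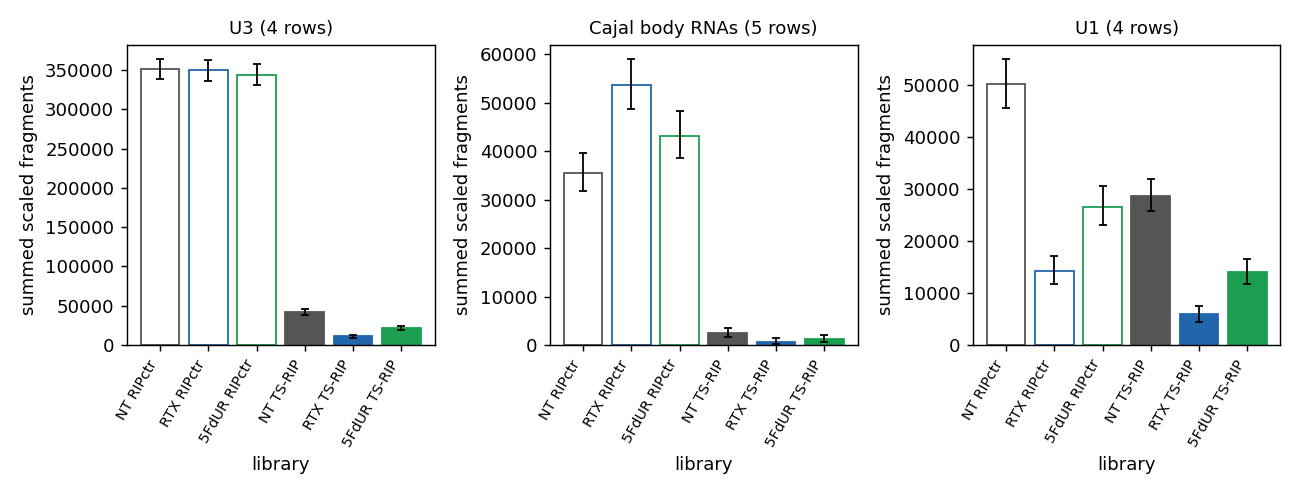
Summed scaled fragments (vertical axis, from 0) of U3, of 5 Cajal body RNAs and of U1 in the 6 libraries, with open bars for RIPctr, filled bars for TS-RIP and exact 95% Poisson counting intervals. U3 was at 351402, 349320 and 343537 in the controls, while U1 was at 50038 in NT RIPctr and 14187 in RTX RIPctr.

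SNORD17, a guide encoded in an intron of SNX5, differed least among the snoRNAs with their own row. Its values were 6725, 8462 and 9130 in RIPctr (NT, RTX, 5FdUR) and 1870, 1927 and 2591 in TS-RIP, 3.60-fold, 4.39-fold and 3.52-fold lower, and -1.88 ± 0.23 in limma (adjusted p = 0.000135). The 2 groups did not overlap.

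The H/ACA pair SNORA73A and SNORA73B, also called U17 or E1, was lower in TS-RIP in every treatment. SNORA73A held 10600, 7840 and 10356 in RIPctr and 1020, 578 and 598 in TS-RIP (-3.57 ± 0.27, adjusted p = 1.87e-06). SNORA73B held 9916, 8587 and 8994 against 680, 1445 and 199.3 (-3.70 ± 0.38, adjusted p = 3.63e-05). Its RTX immunoprecipitate was the highest of the 3, unlike that of U3, on 15 fragments against 8 in NT and 2 in 5FdUR.

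Box C/D and box H/ACA were compared side by side without a test, as 2 H/ACA rows of 1 RNA passed the limit. The 5 C/D rows had a median limma difference of -3.98 (range -4.12 to -1.88) and the 2 H/ACA rows -3.63 (-3.70 and -3.57), so the H/ACA values lay inside the C/D range. Of the 5 C/D rows, 4 were copies of U3, whose fragments cannot be assigned to 1 copy with certainty. The C/D median thus reflects U3, and SNORD17, the other C/D RNA, was at -1.88. Below the limit, sums over the rows of a class were counted. The 222 further single C/D rows together held 35, 26 and 23 fragments in RIPctr and 4, 3 and 4 in TS-RIP, and the 131 further H/ACA rows 45, 53 and 49 against 16, 9 and 2. The intervals of these sums excluded 0 in each treatment for both classes (C/D, NT: -5.51 to -2.07, RTX: -5.85 to -1.78, 5FdUR: -4.97 to -1.43, and H/ACA, NT: -2.84 to -1.06, RTX: -4.13 to -1.89, 5FdUR: -8.15 to -3.14). The 15 further Cajal body rows had ratios of -1.27 in NT (-3.20 to 0.46), -2.62 in RTX (-4.63 to -1.03) and -1.67 in 5FdUR (-4.26 to 0.46). The 1855 further snRNA rows had -0.63 (-1.82 to 0.54), -2.76 (-4.76 to -1.19) and -1.26 (-2.72 to 0.09). For these last 2 classes the interval excluded 0 in RTX and included it in NT and 5FdUR.

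The 5 Cajal body rows had a median of -4.75 and were all called lower, but each passed the limit only through the RIPctr libraries, so the class was not ranked against the others. Their TS-RIP values rested on 0 to 12 fragments, and with a pseudocount of 1000 their differences lay between -3.51 and -1.57, against -3.89 to -3.59 for the SNORD3 rows. SCARNA12, a guide in an intron of PHB2, held 14818, 15307 and 14036 in RIPctr and 595, 385 and 399 in TS-RIP, a difference of -4.75 ± 0.27 (adjusted p = 1.04e-07) and the most even of the 5 across treatments. SCARNA10, in NCAPD2, held 6725, 5725 and 5860 against 1020, 96.4 and 99.7 (-4.13 ± 0.45, adjusted p = 5.84e-05). The lower values of SCARNA10 were 1 fragment each, so its ratio in the drug libraries had intervals from -11.23 to -3.34 in RTX and from -11.21 to -3.32 in 5FdUR.

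SCARNA7, in an intron of KPNA4, had control levels that differed between treatments. It held 8549 in NT, 27254 in RTX and 15807 in 5FdUR among the controls, on 75, 219 and 116 fragments, and 850, 96.4 and 498 in TS-RIP. The TS-RIP values rested on 10, 1 and 5 fragments. Control and TS-RIP values thus went in opposite orders, RTX being the highest control and the lowest immunoprecipitate. In TS-RIP the interval of 5FdUR over NT included 0 (-2.67 to 0.91), so the order of these 2 libraries was not resolved. The limma difference was -5.01 ± 0.50 (adjusted p = 2.84e-05), and RTX over NT in RIPctr was 1.66 on the log2 scale (interval 1.29 to 2.07).

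SCARNA5 and SCARNA6 lie in introns of ATG16L1 and had 0 to 2 fragments per TS-RIP library. SCARNA5 held 3761, 3484 and 4633 in RIPctr and 0, 96.4 and 0 in TS-RIP. With a floor of 3 fragments per library it was at least 14.8-fold lower in NT and at least 15.5-fold lower in 5FdUR, and the limma fit gave -5.01 ± 0.51 (adjusted p = 3.75e-05). SCARNA6 held 1710, 1991 and 2862 against 0, 0 and 199.3, at least 6.70-fold lower in NT and at least 6.89-fold lower in RTX (-3.96 ± 0.56, adjusted p = 0.000641).

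Among rows above 500 in both fractions, U1 differed less between fractions than U3, SNORD17 and SNORA73. The limma differences were -1.24 to -0.87 for U1 and -4.12 to -1.88 for the others, without a test between them. RNU11, the U6 rows and the SCARNA rows had passed the limit only through RIPctr and were left out of this order. U1 was measured in 4 rows with identical sequence, and RNU1-2, RNU1-3 and RNU1-4 were called lower in TS-RIP. RNU1-3 held 18009, 3609 and 8994 in RIPctr (NT, RTX, 5FdUR) and 10795, 2024 and 4186 in TS-RIP (-0.87 ± 0.19, adjusted p = 0.0137). RNU1-4 held 16527, 5102 and 8994 against 9265, 2024 and 4883 (-0.996 ± 0.20, adjusted p = 0.0069), and RNU1-2 held 14020, 4853 and 7631 against 7140, 1735 and 4684 (-1.03 ± 0.21, adjusted p = 0.00926). In every treatment the immunoprecipitate was below its own control, but the 2 fractions overlapped across treatments, since the NT immunoprecipitate stood above the RTX control. RNU1-1 held 1482, 622 and 954 against 1445, 96.4 and 199.3 and did not pass (-1.24 ± 0.54, adjusted p = 0.168).

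The U1 calls were less stable than those of U3. Without the 5FdUR pair RNU1-3 lost its call (adjusted p = 0.0779) and without the RTX pair RNU1-2 did (adjusted p = 0.0634). Summed over 4 rows, U1 had a ratio of -0.80 in NT (interval -1.01 to -0.60), -1.27 in RTX (-1.74 to -0.81) and -0.93 in 5FdUR (-1.25 to -0.61). These intervals overlapped each other and lay apart from those of U3 in each treatment.

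RNU11 and the U6 rows rested on 1 to 18 fragments per library. RNU11 held 2052, 373 and 1363 in RIPctr and 1020, 193 and 99.7 in TS-RIP (-1.50 ± 0.56, adjusted p = 0.11). RNU6-2 held 342, 871 and 1363 against 595, 193 and 399 (-0.88 ± 0.59, adjusted p = 0.376), and RNU6-9 held 570, 871 and 954 against 340, 96.4 and 299 (-1.44 ± 0.59, adjusted p = 0.142). The fractions overlapped in RNU6-2, whose NT immunoprecipitate was above its control, and not in RNU6-9. Without the NT pair RNU6-2 and RNU6-9 passed the test, at -1.64 (adjusted p = 0.0435) and -1.85 (adjusted p = 0.0407). In that fit 2091 of all 13479 rows were called lower, against 831 with all pairs. Summed over both rows, U6 had 8, 14 and 17 fragments in RIPctr and 11, 3 and 7 in TS-RIP, with log2 ratios of 0.04 in NT (-1.41 to 1.55), -2.59 in RTX (-5.03 to -0.75) and -1.73 in 5FdUR (-3.24 to -0.39). The interval of the sum included 0 in NT and excluded it after either drug.

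By the file's own types, 16 of 23 snoRNA rows, 4 of 4 scaRNA rows and 4 of 11 snRNA rows were called lower, again against 6.17% of all rows. The snoRNA type mixed 9 rows of 1 small RNA, of which 9 were lower with a median of -3.98, and 14 rows with a long gene, of which 7 were lower with a median of -0.49. In the snRNA type 3 of 7 rows of 1 RNA were lower (median -1.03) and 1 of 4 rows with a long gene (median -0.60). The limit of 500 bears on these counts as well. SCARNA5, SCARNA6 and SCARNA7 in the scaRNA type, and SCARNA10 and SCARNA12 in the snoRNA type, had passed it only through RIPctr. So had RNU11, RNU6-2 and RNU6-9 in the snRNA type.

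**Figure D4:**
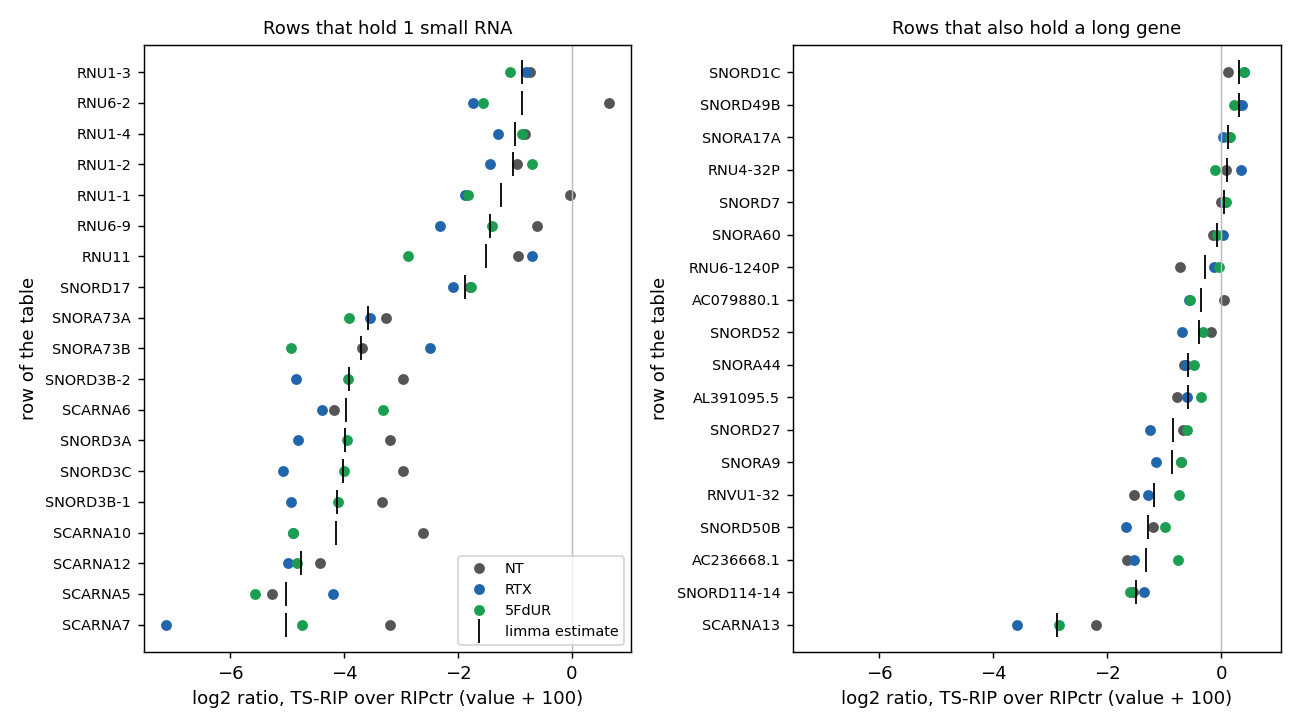
log2 ratio of TS-RIP over RIPctr (value + 100) per treatment as coloured points, with the limma estimate as a black tick, for the 19 rows of 1 small RNA and for the rows that also held a long gene, of which 1 is not shown. The first set reaches down to -7.12 (SCARNA7, RTX) and the second to -3.58 (SCARNA13, RTX).

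For 10 of the 19 rows a gene above 500 surrounds the small RNA on the same strand and has a row of its own. SNX5 around SNORD17, a sorting nexin gene, had a limma difference of 0.21 (adjusted p = 0.208) against -1.88 for the small RNA. KPNA4, an importin gene, was at -0.04 against -5.01 for SCARNA7, and NCAPD2, a condensin subunit gene, at 0.14 against -4.13 for SCARNA10. PHB2, which encodes prohibitin 2, was called higher in TS-RIP, at 0.42 ± 0.11 (adjusted p = 0.0314), while SCARNA12 within it was at -4.75. ATG16L1, an autophagy gene, was at -0.18, against -5.01 for SCARNA5 and -3.96 for SCARNA6. The row that joins SNHG3 and RCC1 was at 0.21, against -3.57 and -3.70 for SNORA73A and SNORA73B. CROCC, annotated around RNU1-2 and RNU1-4, was at -0.32 (adjusted p = 0.103), against -1.03 and -0.996.

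In all 3 treatments the 10 small RNAs had lower ratios than the genes around them, on the same strand and in the same libraries. The difference between a small RNA and its surrounding gene was not tested.

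**Figure D5:**
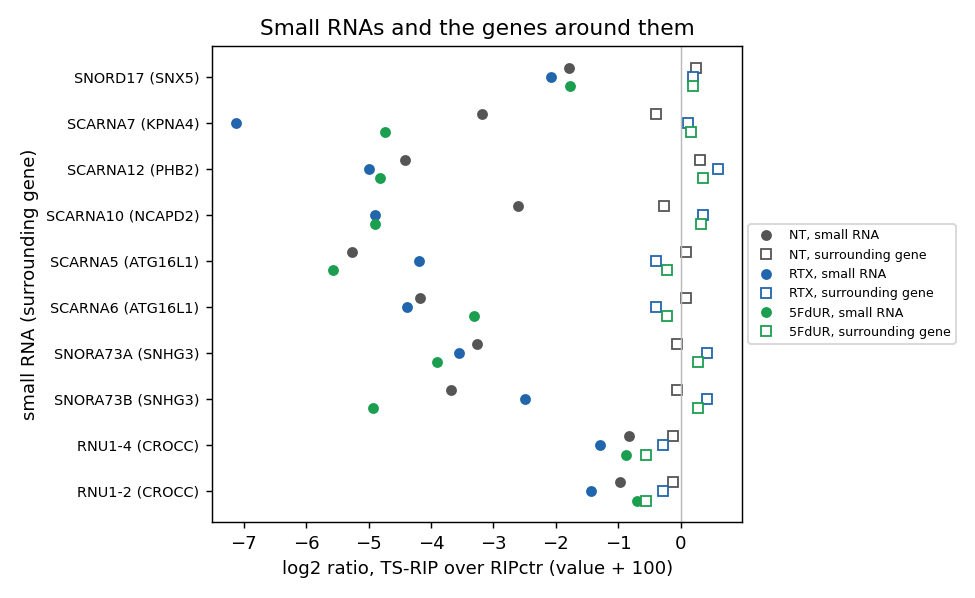
log2 ratio of TS-RIP over RIPctr in each treatment for 10 small RNAs (filled circles) and for the gene that surrounds each on the same strand (open squares). The squares lie between -0.55 and 0.60 and each circle lies to the left of the square of its own treatment. The SCARNA rows had passed the limit of 500 only through RIPctr.

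The 19 rows that also held a long gene had 9 calls, all lower, and a median difference of -0.58. The share of their fragments that came from the small RNA could not be measured. By edgeR 9 were also lower and 0 higher, and at an unadjusted p under 0.05 limma gave 11 lower and 2 higher. The small RNAs embedded in them include short C/D RNAs such as SNORD49B (chr17:16439505-16439576, plus strand, in SNHG29) and SNORD50B (chr6:85677589-85677658, minus strand, in SNHG5), with box C and box D letters in capitals.
SNORD49B: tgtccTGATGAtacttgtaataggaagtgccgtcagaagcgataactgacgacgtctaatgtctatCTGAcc
SNORD50B: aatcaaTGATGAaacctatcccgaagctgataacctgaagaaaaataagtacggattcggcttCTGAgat

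Among rows with a small nucleolar RNA host gene (SNHG), lncRNAs whose introns carry snoRNAs, the values spread widely. SCARNA13, a Cajal body RNA of 275 bases joined with SNHG10, held 8890, 21902 and 9948 in RIPctr (NT, RTX, 5FdUR) and 1870, 1735 and 1296 in TS-RIP (-2.87 ± 0.26, adjusted p = 1.15e-05), the largest difference among the 19. SNORD50B with SNHG5 held 27241, 90846 and 58324 against 11900, 28620 and 29401 (-1.28 ± 0.14, adjusted p = 4.99e-05). SNORD27, in a row with SNHG1 and further SNORD genes, held 48442, 77903 and 48921 against 30601, 32667 and 32291 (-0.84 ± 0.13, adjusted p = 0.00165).

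SNORA9 with SNHG15 held 14818, 21280 and 15807 against 9010, 9540 and 9667 (-0.85 ± 0.16, adjusted p = 0.00479), and every immunoprecipitate lay below every control, but the call was lost without the RTX pair (adjusted p = 0.0777). SNORA44 with SNHG12 held 12538, 23520 and 18805 in RIPctr and 7990, 15322 and 13554 in TS-RIP (-0.58, adjusted p = 0.0241). AL391095.5, a SNORA71 gene with SNHG17, held 11170, 23022 and 17170 against 6460, 15225 and 13355 (-0.58, adjusted p = 0.0313). In both, each immunoprecipitate was below its own control while the fractions overlapped across treatments. Both lost their calls without the RTX pair, at adjusted p = 0.243 and 0.248, and SNORA44 also without the 5FdUR pair (adjusted p = 0.0568). In contrast SNORD49B with SNHG29 held 103722, 108766 and 116102 against 129884, 139822 and 136140 (0.31 ± 0.10, adjusted p = 0.0749). SNORD1C with SNHG16 was also at 0.31 (adjusted p = 0.0878), and both passed as higher without the NT pair (adjusted p = 0.0029 and 6.89e-06). Calls were frequent over all 13479 rows in that fit, with 2091 lower and 1862 higher, against 831 and 314 with all pairs. A call gained there is thus not particular to these rows. The rows of SNORA17A with SNHG7 (0.11), SNORA60 with SNHG11 (-0.07) and SNORD7 with SNHG30 (0.05) did not pass, nor did SNORD52 with SNHG32 and HSPA1B (-0.39, adjusted p = 0.0536), which passed as lower without the NT pair (-0.51, adjusted p = 2.57e-09).

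The remaining rows held long genes outside the SNHG series. RNVU1-32, a variant U1 gene on chromosome 8 joined with PVT1, held 28153, 35716 and 34204 in RIPctr and 9690, 14647 and 20331 in TS-RIP (-1.19 ± 0.15, adjusted p = 0.000269). AC236668.1, a U3-like gene joined with XACT, held 2622, 5476 and 5451 against 765.0, 1831 and 3189, a difference of -1.31 ± 0.28 (adjusted p = 0.0119) and lost its call without the RTX pair (adjusted p = 0.0784). SNORD114-14, in a row of 19 genes with MEG3 and MEG8, held 683.9, 2116 and 2317 against 170.0, 770.9 and 697.6 (-1.49 ± 0.43, adjusted p = 0.0436). It lost its call without the RTX pair (adjusted p = 0.257) or the 5FdUR pair (adjusted p = 0.196). RNU6-1240P with TPR (-0.29), AC079880.1 with UBA6-DT (-0.36) and RNU4-32P with MMAB (0.11) did not pass. As a scale, 219 of 1143 lncRNA rows tested were called lower, with a median of -0.50, and 535 of 12180 protein-coding rows, with a median of 0.01.

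Within each treatment, rows were counted past 1.5-fold without a test where the mean of both libraries was above 500. In NT 16 of 17 such rows of 1 small RNA were lower and 0 higher (9.8% and 4.37% of all rows), in RTX 16 of 16 and 0 (14.7% and 4.27%), and in 5FdUR 19 of 19 and 0 (15.1% and 3.03%). Rows with a long gene were lower in 10 of 18, 11 of 19 and 8 of 19, and 0 were higher. The row of 1 small RNA in NT that was not past 1.5-fold was RNU1-1, with 1482 in RIPctr and 1445 in TS-RIP. The limit on the mean bears on these counts too. Averaged over treatments, the SCARNA, RNU11 and RNU6 rows were above 500 only in RIPctr, so their count as lower was partly fixed by the limit. RNU6-2 in NT was past 1.5-fold higher (342 in RIPctr, 595 in TS-RIP) but fell below the limit and was not counted.

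Differences between treatments were fitted over both fractions in the same model. The p-values rest on 2 libraries per treatment from 1 culture, so they do not cover the spread between cultures, and calls were frequent over all rows (RTX against NT: 23% higher and 22.2% lower, and 5FdUR against NT: 29.1% and 27.1%). Among the rows of 1 small RNA, 8 of 19 were lower in RTX than in NT and 3 of 19 lower in 5FdUR, with 0 higher in both comparisons (edgeR: 5 lower and 1 higher, SCARNA7, in RTX, 3 and 0 in 5FdUR). For 5FdUR against RTX, 3 of 19 were higher and 0 lower, while 4.02% and 4.64% of all rows were.

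U1 carried most of these calls. RNU1-3 was at -2.32 on the log2 scale with RTX (SE 0.24, adjusted p = 4.3e-06) and at -1.17 with 5FdUR (SE 0.24, adjusted p = 0.000718), and was higher in 5FdUR than in RTX by 1.15 (adjusted p = 0.0092). RNU1-4 was at -1.91 with RTX (adjusted p = 2.26e-05) and at -0.89 with 5FdUR (adjusted p = 0.00539), and RNU1-2 at -1.75 (adjusted p = 9.42e-05) and at -0.73 (adjusted p = 0.0265). RNU1-1 and RNU11 were lower with RTX, at -2.05 (adjusted p = 0.0209) and -2.06 (adjusted p = 0.0241), and missed the threshold with 5FdUR (-1.48, adjusted p = 0.0727, and -1.52, adjusted p = 0.073).

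The summed U1 value was 50038 in NT, 14187 in RTX and 26573 in 5FdUR among the controls, and 28646, 5878 and 13953 among the immunoprecipitates. The order NT, 5FdUR, RTX held in both fractions. RTX over NT was -1.82 in RIPctr (interval -2.13 to -1.52) and -2.28 in TS-RIP (-2.70 to -1.89), and 5FdUR over NT was -0.91 (-1.16 to -0.67) and -1.04 (-1.33 to -0.75). CROCC, the gene annotated around RNU1-2 and RNU1-4, held 93692 in NT RIPctr, 43556 in RTX RIPctr and 42244 in 5FdUR RIPctr, with limma differences from NT of -1.19 for RTX and -1.36 for 5FdUR. Whether part of the U1 fragments came from CROCC transcripts, and how many U1 fragments the mapping filter removed, was not tested.

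The other calls with RTX were in U3, namely SNORD3C (-1.06, adjusted p = 0.0109), SNORD3B-2 (-1.12, adjusted p = 0.00707) and SNORD3A (-0.73, adjusted p = 0.0371). SNORD3B-1 was at -0.74 (adjusted p = 0.0504). As shown above, the U3 controls hardly differed between treatments, so these coefficients averaged a control near 0 with a lower TS-RIP library.

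The rows with a long gene went the other way. With RTX 8 of 19 were higher and 0 lower (23% and 22.2% of all rows), and with 5FdUR also 8 of 19 and 0 (29.1% and 27.1%). SNORD50B with SNHG5 rose by 1.496 with RTX (SE 0.17, adjusted p = 8.09e-06) and by 1.20 with 5FdUR (adjusted p = 2.58e-05), and AL391095.5 with SNHG17 by 1.13 (adjusted p = 0.000209) and 0.83 (adjusted p = 0.00158). SNORA17A with SNHG7, SNORD1C with SNHG16 and SNORA44 with SNHG12 rose by 0.83 to 0.96 with RTX and by 0.67 to 0.78 with 5FdUR, all past the threshold. SNORD114-14 with MEG3 (1.59 with either drug) and AC236668.1 with XACT (1.10 and 1.48) were called with both, RNU6-1240P with TPR with RTX (0.61, adjusted p = 0.00984) and RNVU1-32 with PVT1 with 5FdUR (0.67, adjusted p = 0.00676). Between 5FdUR and RTX 0 of the 19 were called by limma or by edgeR, and at an unadjusted p under 0.05 limma gave 3 and edgeR 4, all lower.

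The mRNAs of the proteins that bind these RNAs were called between the fractions about as rarely as all rows, of which 6.17% were lower and 2.33% higher. Of 13 C/D ribonucleoprotein and assembly mRNAs, 0 were called (median 0.02), among them NOLC1, a nucleolar chaperone (-0.13), and RUVBL2, an ATPase of the assembly complex (0.11). Of 6 H/ACA mRNAs, NHP2, a core subunit, was higher (0.35, adjusted p = 0.0447), and DKC1, dyskerin, was at 0.15. Of 12 Cajal body and SMN complex mRNAs COIL, which encodes coilin, was lower (-0.42, adjusted p = 0.0292), with GEMIN5 at 0.02 and STRAP at 0.19. Among 18 Sm and LSm mRNAs LSM4 was higher (0.37, adjusted p = 0.039) and SNRPB, in a joined row, was at 0.36 (adjusted p = 0.0528). Of 22 mRNAs of snRNP-specific proteins 0 were called, with PRPF8 at 0.11 and SNRNP200 at 0.12. Of 13 for snRNA transcription and end processing SNAPC4, a subunit of the snRNA-activating complex, was lower (-0.56, adjusted p = 0.0248), with INTS1 at -0.36 and SNAPC1 at -0.18.

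Between treatments the Sm and LSm list, which encodes the rings around snRNAs, had 14 of 18 mRNAs higher and 1 lower with RTX and the same counts with 5FdUR, with medians of 0.75 and 0.76, beside the 23% and 29.1% of all rows called higher. LSM3 (1.36 and 1.76), LSM8 (1.34 and 1.37) and SNRPF (1.24 and 1.37) had the largest values of the list, picked after they were seen, and LSM11, a subunit of the histone-specific U7 particle, was lower (-0.61 and -0.56). In the same libraries U1 was lower with either drug, as given above. Of the 13 mRNAs of the snRNA transcription list 2 were higher and 3 lower with RTX, beside 23% and 22.2% of all rows. A link of these mRNAs to the level of U1 was not tested.

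Of 10 other structured small RNAs that are not members, 3 were above 500. TERC, the telomerase RNA, which has an H/ACA domain and passes through Cajal bodies, held 31915, 100179 and 92119 in RIPctr and 7480, 3855 and 5083 in TS-RIP (-3.63 ± 0.32, adjusted p = 8.86e-06). RN7SL1 and RN7SL2, the RNA of the signal recognition particle in the cytoplasm, were at -0.49 (adjusted p = 0.278) and -0.37 (adjusted p = 0.43), with signs that differed between treatments. The log2 ratio of RN7SL1 was 0.48 after RTX, against -0.98 in untreated cells and -0.97 after 5FdUR, and that of RN7SL2 was 0.73, against -0.95 and -0.89.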

How the data were processed

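RNA of 6 libraries was analysed from a table of scaled fragments per gene locus, a signal that the authors made before deposit. Per the study's methods, rRNA-depleted reads were trimmed with fastp, cleared of rRNA with BWA, aligned to GRCh38 with HISAT2, filtered at MAPQ of at least 1, assembled with Cufflinks on GENCODE 34 and scaled with Cuffnorm. Tool versions are not given in the sources used here. Although called FPKM, the deposited signal values were not divided by length: 100% were whole multiples of 1 step per library, which gave the fragments. The table held 24 further per-sample columns that were not used, 12 of them of a long RNA series.

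Rows with a mean above 500 were tested with limma 3.58.1 (R 4.3.3) on log2(value + 100), trend on, with treatment as a blocking factor and 2 residual degrees of freedom. edgeR 4.0.16 (quasi-likelihood) and DESeq2 1.42.0 on recovered fragments were alternatives, as were pseudocounts of 10 and 1000, other filters, scalings and half-depth columns. Both fractions of a treatment came from 1 culture, so p-values cover no spread between cultures. Counting intervals are exact at 95%, computed with Python 3.11.15, and cover counting error only. By the rule all members are named. Every library's value is given for those that passed limma and, among rows of 1 small RNA, for the most abundant of each class. As an exception, 1 row with a long gene and 1 sequence are not reported here, while counts include that row. The fit was tested on simulated data. Members and lists were chosen with earlier results of these data known.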

Additional observations from a re-analysis of the deposited data

Results flagged for a closer look

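RNU6-2, a U6 snRNA gene, had a log2 ratio of TS-RIP over RIPctr of 0.65 in untreated cells. It was at -1.73 after RTX and at -1.55 after 5FdUR, so untreated cells went the opposite way to both drugs. The values rested on 7 against 3 fragments in NT, 2 against 7 in RTX and 4 against 10 in 5FdUR, and the 95% counting intervals were -1.33 to 3.38, -5.48 to 0.22 and -3.90 to 0.02. All 3 intervals included 0 and overlapped each other. Summed with the identical RNU6-9, U6 had intervals of -1.41 to 1.55, -5.03 to -0.75 and -3.24 to -0.39, which excluded 0 after either drug and still overlapped that of untreated cells. The difference between treatments was not tested.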

How the results depend on the processing

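Of 509 refits of single members, 450 kept direction and side of the threshold, 52 lost the call, 7 gained one and 0 reversed. Without the treatment block, 8 rows of 1 small RNA (15 in the report) and 1 row with a long gene (9) were lower, and 47 lower and 0 higher over all rows (831 and 314). Without the trend in limma, 10 rows of 1 small RNA were lower (15). Among those that lost the call were SCARNA7 (adjusted p = 0.0767) and SNORA73B (adjusted p = 0.0526). In the same setting rows with a long gene gave 2 and all rows 215 lower and 0 higher. RTX against NT gave 4 rows of 1 small RNA (8) and 5FdUR against RTX 0 (3). With libraries scaled to the same total, all rows gave 457 lower and 65 higher, and 5FdUR against RTX 1. Half-depth columns gave 475 lower and 139 higher, DESeq2 5 rows with a long gene and 419 lower over all rows, and no filter 1414 lower. Leaving out 1 treatment pair gave 4 to 10 rows with a long gene lower, 0 to 2 members higher, and over all rows 359 (without RTX) to 2091 (without NT) lower and 4 (without RTX) to 1862 (without NT) higher. The mean of the 3 within-treatment class medians moved with the pseudocount: H/ACA from -3.63 to -2.59 at 1000, Cajal body RNAs from -4.63 to -5.16 at 10 and -2.50 at 1000, and snRNAs from -1.19 to -0.67 at 1000. The larger pseudocount shrinks ratios of low values by construction, and the cause of the other moves was not tested. In the half-depth columns RNU1-2, RNU1-3 and RNU1-4 lost their calls (adjusted p = 0.108, 0.0653 and 0.0887). No further paired analysis was possible because there was 1 library per treatment and fraction, and the treatment block is already in the fit. With 1 culture per treatment and few fragments in the TS-RIP values of the SCARNA, RNU11 and RNU6 rows, depth limits these rows.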
